A study of Mus musculus with 2 samples.

Results

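The cells described here are proximal tubule cells with little or no RNA for SGLT2, taken from a single-cell RNA-seq study of female mouse kidney after rhabdomyolysis, the breakdown of muscle that injures the kidney. They were picked by a gate on UMIs (unique molecular identifiers, which count captured mRNA molecules) per 10000 non-mitochondrial UMIs. A cell barcode needed at least 500 genes, at most 50% mitochondrial UMIs, at least 25 UMIs per 10000 of Slc34a1 plus Lrp2, under 2 of Slc5a2 (SGLT2) plus Slc5a12, and under 4 of the stress genes Cyr61 plus Fosb. The gate kept 752 of 3261 cells, 438 of 1767 in the vehicle library and 314 of 1494 in the CA3 library, and these are called late cells. They were compared with 693 early cells (371 and 322), which passed the same gate with Slc5a2 plus Slc5a12 at 10 or more. Cells from 2 to under 10 are called middle cells (276 and 247).

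The study held 2 libraries of total kidney cells from C57Bl/6 mice aged 9 weeks, 1 from mice with rhabdomyolysis given vehicle and 1 from mice with rhabdomyolysis given CA3, a compound described elsewhere as blocking the transcriptional co-activator YAP1. Both libraries came from the genotype Pax8.rtTA;TetO.Cre;R26.FUCCI2aR, in which Pax8-driven rtTA allows inducible Cre in tubule epithelium and the Rosa26 locus carries a FUCCI2aR cell cycle reporter. Every cell therefore came from an injured kidney, and uninjured kidneys were not analysed here. The sources used here do not give the dose, the time after injury, the number of mice in each library or whether doxycycline, which switches on the Cre, was given. With 1 library per group there was no replicate and no test. Intervals at the 95% level cover counting error only.

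The proximal tubule reabsorbs most of the glucose, amino acids, phosphate and bicarbonate that the glomerulus filters, and its carriers change along its length. The first segments (S1 and S2) take up bulk glucose through SGLT2 and neutral amino acids through Slc6a19. The last segment (S3, the straight part) recovers what is left through high-affinity carriers such as SGLT1 (Slc5a1), and is rich in peroxisomes and in enzymes of lipid and xenobiotic metabolism. S2 is known for secretion of organic anions through Slc22a6 and Slc22a8. Several late genes of the mouse kidney depend on sex hormones.

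The libraries held 19592239 UMIs in 1967 barcodes (vehicle) and 17013222 UMIs in 1724 barcodes (CA3). Late cells had a median of 4662.5 and 4829 non-mitochondrial UMIs, against 5682 and 5887 in early cells, and a median of 21.9% and 23.3% mitochondrial UMIs, against 20.1% and 20.95%. Only 1 barcode occurred in both libraries, and it was late in neither. No doublet caller was run. Late cells made up 24.8% (22.8 to 26.9%, exact Clopper-Pearson) of kept vehicle cells and 21.0% (18.98 to 23.2%) of kept CA3 cells. Among proximal tubule cells that passed the stress limit, the shares were 40.4% (37.4 to 43.4%) and 35.6% (32.4 to 38.8%).

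Most late cells had no UMI at all of the genes that defined them as negative. In the vehicle library 392 of 438 late cells, and in the CA3 library 280 of 314, had 0 UMIs of Slc5a2 and Slc5a12. A further 37 and 33 cells had 1 UMI. The gate is a range and not a cell type, and the cells next to its limit are given here as a description. At 0 UMIs Cyp4a14 stood at 460 CPM (UMIs per 1000000 non-mitochondrial UMIs) in the vehicle library and 524 CPM in the CA3 library. In the 46 and 34 late cells just inside the limit it stood at 242 and 355 CPM, and in the 94 and 107 cells just outside it, from 2 to under 4, at 154 and 306 CPM. Slc10a2 stood at 166 and 122 CPM just inside and at 65.9 and 80.6 CPM just outside, and Slc5a1 at 96.9 and 125 CPM against 32.0 and 51.6 CPM. Slc22a13 stood at 25.4 and 62.7 CPM against 13.2 and 11.3 CPM, and Slc7a12 at 118 and 257 CPM against 0 and 4.83 CPM. The step at the limit thus differed from gene to gene. A cell with an Slc5a2 or Slc5a12 UMI falls under the limit only at high enough depth. Cells just inside it had medians of 9453.5 (vehicle) and 8159 (CA3) non-mitochondrial UMIs, against 4158.5 and 4227 just outside. The part of depth in these steps was not tested. For Slc7a12, 17 and 5 late cells held 97.0% and 98.9% of its late UMIs, so its levels rest on few cells.

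Levels of 4 markers of the late proximal tubule are described next. These markers were chosen with earlier results of these data known, so their levels cannot check the label. They were Cyp4a14 (ENSMUSG00000028715), a fatty acid omega-hydroxylase, Slc10a2 (ENSMUSG00000023073), the apical sodium-dependent bile acid carrier, Slc22a13 (ENSMUSG00000074028), an organic anion carrier, and Slc7a12 (ENSMUSG00000039710), a member of an amino acid carrier family. Cyp4a14 stood at 423 CPM in late vehicle cells and 496 CPM in late CA3 cells, against 28.3 and 48.6 CPM in early cells. Slc10a2 stood at 177 and 141 CPM, against 21.8 and 15.9 CPM. Both were thus higher in late cells of both libraries, by 14.9 (11.8 to 19.0, exact conditional binomial interval) and 10.2 (8.48 to 12.4) times for Cyp4a14 and by 8.13 (6.20 to 10.8) and 8.86 (6.38 to 12.6) times for Slc10a2.

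Slc22a13 stood at 77.1 and 43.6 CPM in late cells, with 2 UMIs over all early vehicle cells and none in early CA3 cells. It was 106 (29.0 to 882) times higher in vehicle late cells. In the CA3 library the lower interval bound of the ratio was 30.5, and the ratio was 38.3 with 3 UMIs put in place of 0. At 43.6 CPM in CA3 late cells Slc22a13 was under the minimum level for a call. Slc7a12 stood at 104.9 and 91.3 CPM, with 1 UMI over all early vehicle cells and none in early CA3 cells. Its ratio was 289 (51.4 to 11442) in the vehicle library. In the CA3 library the lower interval bound was 64.6, and the ratio was 80.2 with 3 UMIs put in place of 0. In the plot of segment genes, all 4 markers had their highest level in late cells and an intermediate one in middle cells.

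**Figure D1:**
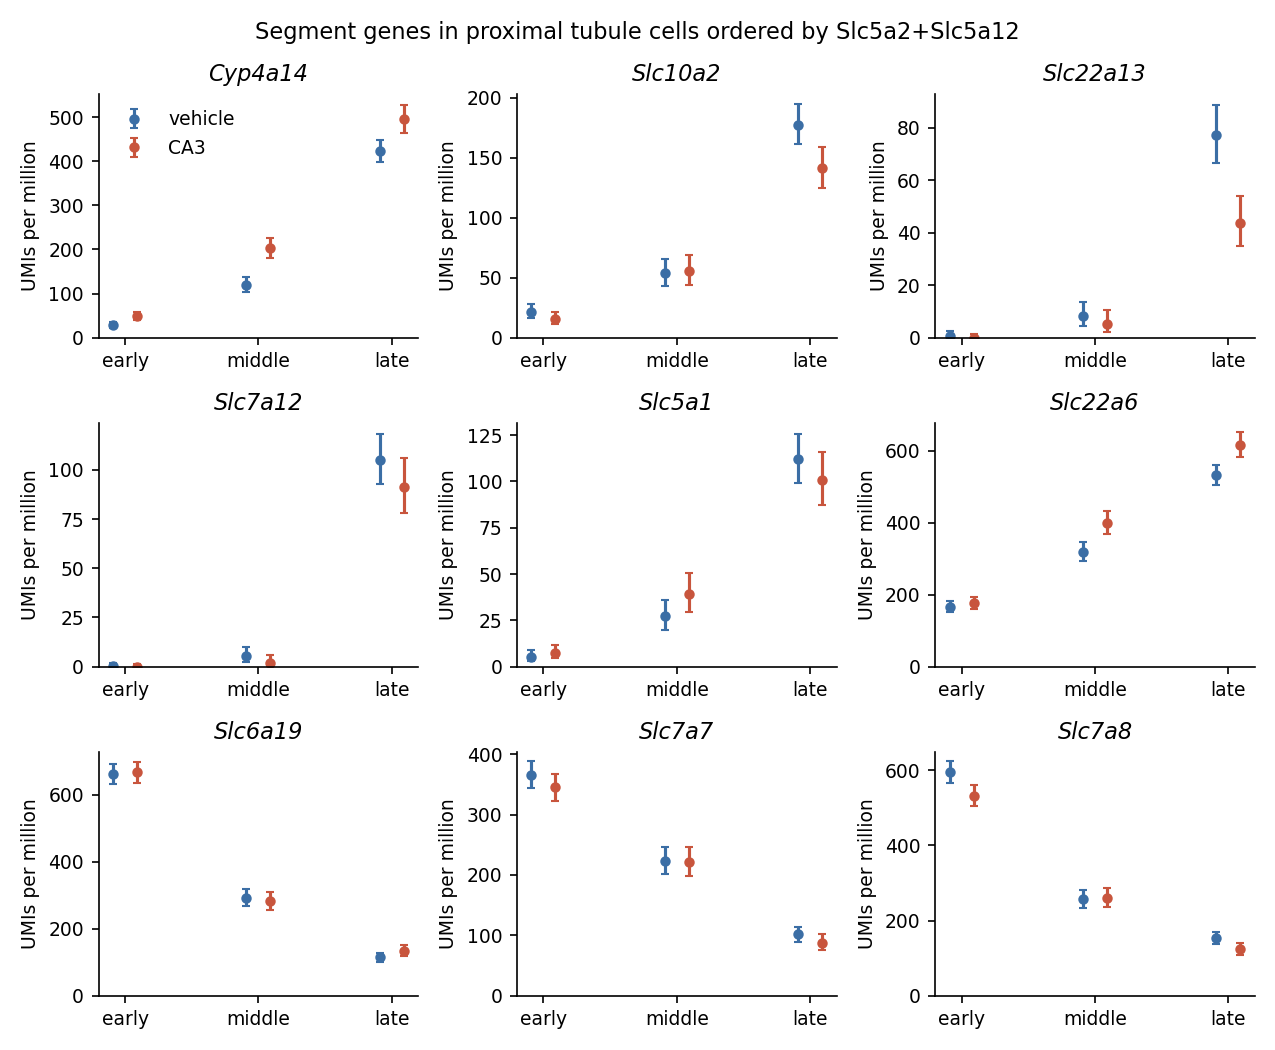
Summed level of 9 segment genes (CPM, linear axes from 0) in early, middle and late cells of the vehicle library (blue) and the CA3 library (red), with 95% Poisson intervals for counting error. The late markers and Slc22a6 are highest in late cells (Cyp4a14 at 423 and 496 CPM), and Slc6a19, Slc7a7 and Slc7a8 are highest in early cells (Slc6a19 at 662 and 668 CPM).

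The markers did not mark every late cell. A Cyp4a14 UMI was found in 63.5% and 70.1% of late cells, Slc10a2 in 44.7% and 39.8%, Slc22a13 in 12.6% and 10.8%, and Slc7a12 in 5.25% and 1.91%. After thinning each cell to 2000 UMIs, which left out 1 late and 2 early CA3 cells, the Cyp4a14 shares were 44.3% and 53.7% in late cells and 4.04% and 5.94% in early cells. In lymphocytes (cells called by T, NK and B cell markers), which should lack the gene, they were 2.33% of 43 cells and 1.98% of 101 cells, at median depths of 4702 and 5186 UMIs. The Slc10a2 shares after thinning were 24.9% and 20.4% in late cells, 2.70% and 3.44% in early cells and 0% in lymphocytes of both libraries. None of the 4 markers was seen in 24.0% and 20.4% of late cells, against 81.9% and 80.4% of early cells.

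Markers of S2 were common in late cells. Slc22a6, the organic anion carrier OAT1, was found in 82.2% and 86.0% of late cells and in 41.5% and 46.0% of early cells, and its level was 532 and 617 CPM against 166 and 177 CPM. Slc13a3, a dicarboxylate carrier, and Cyp2e1 were also at least 2 times higher in late than in early cells of both libraries, so that 3 of 4 S2 markers were. Of 4 tested S3 markers 3 were higher in the same way, against 4.34% of all genes. Slc5a1 was found in 39.7% and 35.7% of late cells, Slc5a8 in 61.2% and 60.5%, and Slc6a18 in 60.0% and 64.3%. Slc7a13, a late carrier known to be high in males, had 0 UMIs in late vehicle cells and 1 UMI in late CA3 cells, and Cyp7b1 had 1 and 0. By these markers, RNA of S2 and of S3 genes was found in the gate. Over all late cells, whether the same cells held both was not tested. The name SGLT2 negative describes the gate more closely than a segment name.

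The DNA just upstream of 4 carrier genes of late cells is shown because these genes moved together between early and late cells. The sequences come from RefSeq on GRCm38.p6, end before the start of the gene in the annotation, and run 5′ to 3′ on the strand of the gene. Capitals mark a match to GTTAAT or its reverse complement ATTAAC, a half-site of the kind known for the tubule factor HNF1.
Slc10a2, chr8:5105352-5105537, minus strand: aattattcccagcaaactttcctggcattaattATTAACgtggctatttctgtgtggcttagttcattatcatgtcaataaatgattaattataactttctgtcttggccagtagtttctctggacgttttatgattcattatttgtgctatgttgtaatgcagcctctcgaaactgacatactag
Slc5a1, chr5:33103969-33104218, plus strand: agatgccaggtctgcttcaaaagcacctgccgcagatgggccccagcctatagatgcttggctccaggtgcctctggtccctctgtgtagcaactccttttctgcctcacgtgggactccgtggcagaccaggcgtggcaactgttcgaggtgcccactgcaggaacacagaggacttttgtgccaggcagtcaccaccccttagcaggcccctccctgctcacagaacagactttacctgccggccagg
Slc22a13, chr9:119209106-119209355, minus strand: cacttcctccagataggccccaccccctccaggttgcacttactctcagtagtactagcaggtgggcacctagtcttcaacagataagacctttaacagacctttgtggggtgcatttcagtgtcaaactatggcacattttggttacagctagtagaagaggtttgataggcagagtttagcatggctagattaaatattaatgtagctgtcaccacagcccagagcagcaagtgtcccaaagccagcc
Slc5a8, chr10:88885742-88885991, plus strand: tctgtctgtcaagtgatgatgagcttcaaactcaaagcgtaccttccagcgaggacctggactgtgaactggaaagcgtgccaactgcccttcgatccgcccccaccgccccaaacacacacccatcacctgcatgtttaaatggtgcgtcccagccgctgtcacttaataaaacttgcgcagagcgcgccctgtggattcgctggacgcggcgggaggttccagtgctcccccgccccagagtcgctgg

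Within 250 bases upstream of the start, GTTAAT on either strand was found in 21 of 150 promoters (14.0%) of 120 genes that were higher in late cells. It was found in 16 of 329 promoters (4.86%) of 243 genes that were lower, and in 2113 of 32851 promoters (6.43%) in all. Promoters were at hand for these 120 of 151 higher and 243 of 303 lower genes only. A gene with several promoters counts more than 1 time, and the set of all promoters was not limited to tested genes. Of the 4 genes shown, Slc10a2 held a match. The half-site AGGTCA, known for nuclear receptors, was in 13.3%, 11.2% and 14.0% of the same promoter sets, and CAAAGTCCA, a motif of the kind known for HNF4A, in 1.33%, 0% and 0.384%. A match describes these letters only.

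Late and early cells also differed in Malat1, a nuclear long non-coding RNA, and this bears on every comparison between them. Malat1 stood at 27869 and 33956 CPM in late cells and at 128240 and 120036 CPM in early cells. Its values per cell fell into a low and a high range, and with a limit of 50 UMIs per 10000, chosen after the values were seen, 377 of 438 (86.1%) and 275 of 314 (87.6%) late cells were Malat1-low. Among middle cells 84.1% and 91.1% were low, and among early cells 173 of 371 (46.6%) and 153 of 322 (47.5%). Between 20 and 100 per 10000, near the limit, lay 40 and 34 late cells. The nuclear RNAs Xist (672 and 944 CPM in late, 3052 and 3044 CPM in early cells) and Neat1 (296 and 491 CPM in late, 1562 and 1840 CPM in early cells) were lower in late cells as well.

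Malat1-low late cells had fewer UMIs, with a median of 4350 and 4595 against 8374 and 9708 in Malat1-high late cells. They had a higher mitochondrial share, with a median of 22.8% and 24.6% against 16.0% and 14.9%. Ratios among Malat1-low cells alone are therefore given below for many of the genes, and counts for the lists with higher or lower members. Of the 3 S2 markers named above as higher, 2 kept a 2-fold difference among Malat1-low cells, Slc22a6 and Cyp2e1, and Slc13a3 did not. All 3 higher S3 markers kept it. The part of the Malat1 difference in the remaining ratios was not tested.

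**Figure D2:**
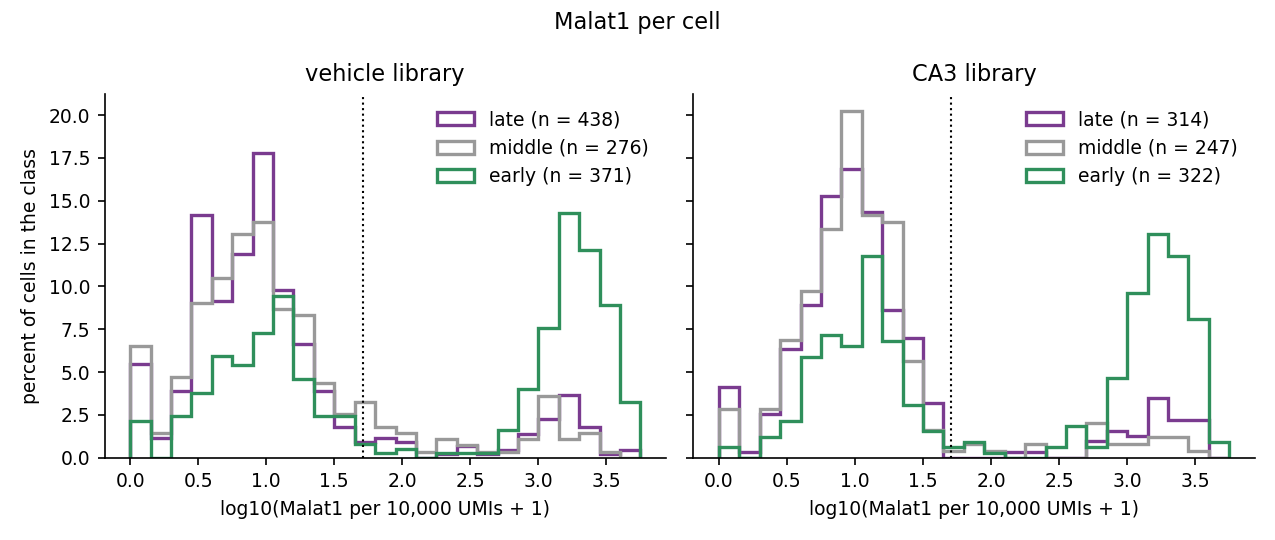
Share of cells (percent) by Malat1 level (log10 of UMIs per 10000 plus 1) for late, middle and early cells of each library; the dotted line marks 50 UMIs per 10000. Most late cells lie left of the line (86.1% and 87.6%), and early cells are spread over both peaks (46.6% and 47.5% on the left).

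Of 3477 genes with enough UMIs, 151 (4.34%) were at least 2 times higher in late than in early cells of both libraries, and 303 (8.71%) at least 2 times lower, 13.1% in all. With the 50 highest genes left out of the total, the split was 122 higher and 536 lower, and the median log2 ratio over all genes moved from 0.12 and 0.078 to −0.047 and −0.060. Among Malat1-low cells 89 of the 151 higher genes were still at least 2 times higher in both libraries and none was 2 times lower. Of the 303 lower genes, 248 had enough UMIs there, 58 were still at least 2 times lower and 9 were at least 2 times higher. Among Malat1-high cells 86 of 146 higher and 51 of 303 lower genes kept their 2-fold difference. The cells were picked by their expression, so these differences describe the gate.

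The 15 genes named as highest in late relative to early cells, shown in the plot of late to early ratios, were led by Kap, the kidney androgen-regulated protein. Kap stood at 3765 and 2372 CPM in late cells and at 19.3 and 11.8 CPM in early cells, ratios of 195 (149 to 261) and 202 (142 to 297). Most of this RNA was in the few cells with Slc7a12 described below, without which the ratios were 32.7 and 78.3. Slc5a8, a carrier of lactate and other short monocarboxylates, stood at 279 and 249 CPM in late cells and at 12.7 and 20.5 CPM in early cells. Its ratios were 21.9 (15.6 to 31.8) and 12.2 (9.16 to 16.4), and 14.6 and 14.2 among Malat1-low cells. Slc5a10, a carrier of mannose and fructose, stood at 350 and 293 CPM against 34.2 and 35.7 CPM, ratios of 10.3 and 8.22, and of 9.34 and 5.52 among Malat1-low cells. Slc5a1 (SGLT1) stood at 112 and 101 CPM against 5.45 and 7.59 CPM, ratios of 20.5 (12.2 to 37.2) and 13.3 (8.36 to 22.2), and of 17.8 and 6.75 among Malat1-low cells. These 3 carriers were thus several-fold higher in late cells of both libraries, with and without Malat1-high cells.

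Tmigd1, an adhesion protein of the brush border, stood at 343 and 221 CPM in late cells against 17.8 and 10.2 CPM in early cells (ratios of 19.3 and 21.6). Napsa, the aspartic protease napsin A, stood at 2139 and 1738 CPM against 88.7 and 140 CPM (24.1 and 12.4). Both genes kept ratios above 9 among Malat1-low cells, at 21.5 and 12.9 for Tmigd1 and 20.6 and 9.52 for Napsa. Hpd, an enzyme of tyrosine breakdown, had ratios of 17.2 (12.2 to 24.9) and 28.2 (17.6 to 48.1). Dpys of pyrimidine breakdown had ratios of 18.6 and 10.4, Dmgdh and Bhmt2 of the choline and methionine pathways 14.85 and 11.95, and 12.5 and 8.84, and Aadat, a kynurenine aminotransferase, 8.97 and 8.91. The transcript ends of Bhmt2 shared 65.7% of their sequence words, short runs of bases, with other genes, so its count is uncertain. Without the Slc7a12 cells described below the ratios of Aadat were 4.14 and 3.15, and those of Napsa 14.5 and 8.81. Pou3f3, a transcription factor of nephron development, stood at 68.1 and 62.3 CPM against 4.72 and 5.31 CPM. All 15 genes named as highest were at least 2 times higher in late cells of both libraries among Malat1-low cells too. Among Malat1-high cells 13 of the 15 had enough UMIs, without Kap and Slc7a12, and 12 kept the 2-fold difference. Aadat did not, with ratios of 4.67 and 1.87 there.

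**Figure D3:**
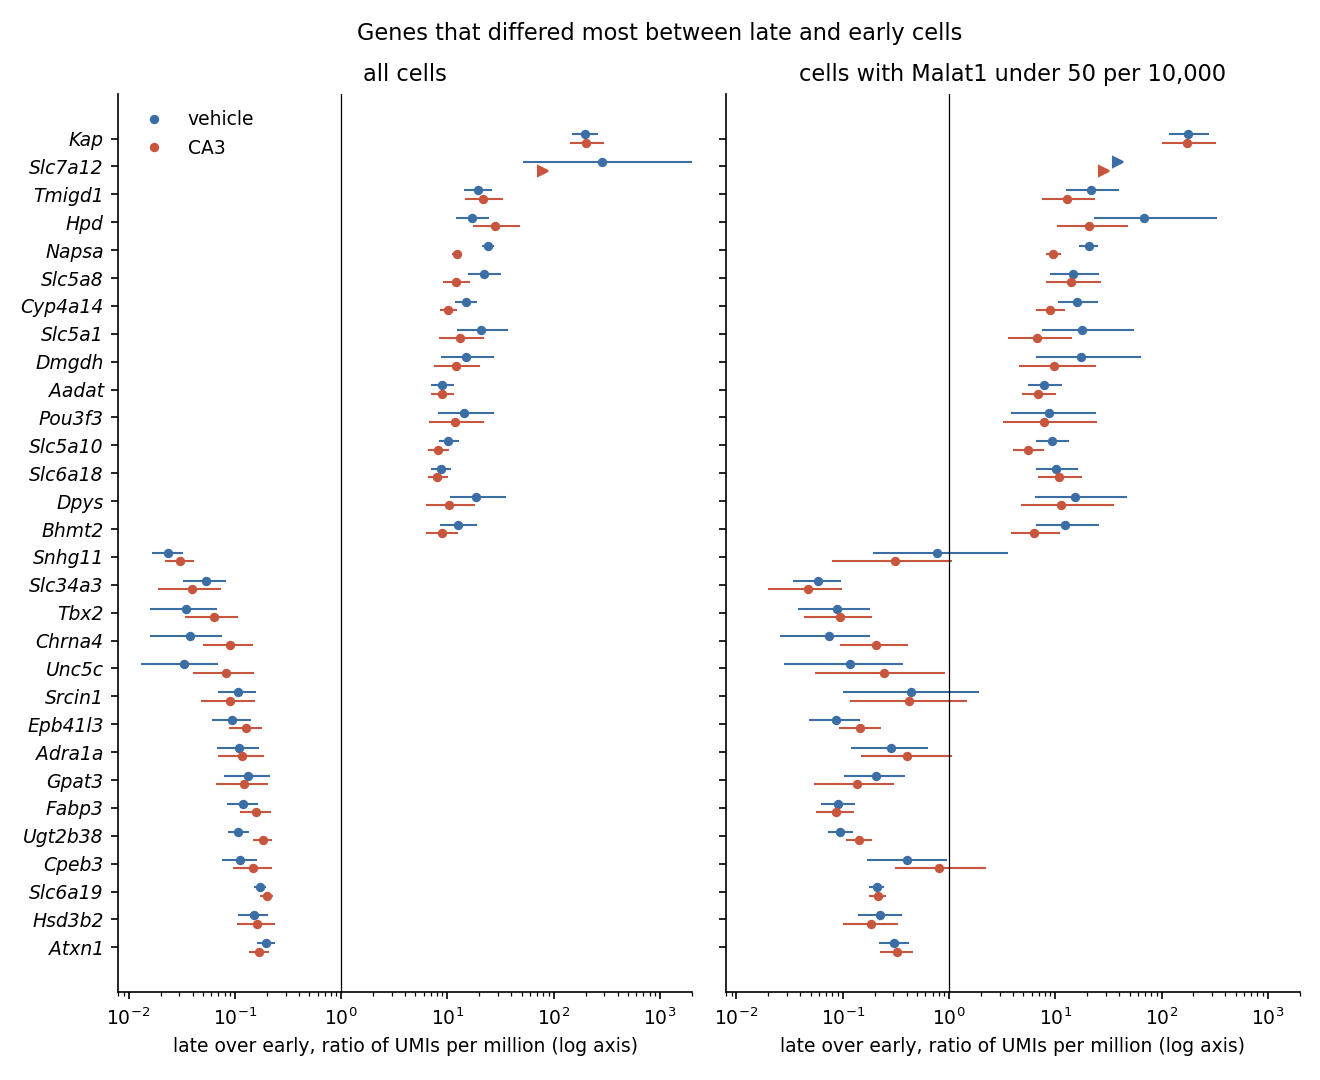
Ratio of late to early cells (log axis) for the 30 named genes in the vehicle (blue) and CA3 (red) libraries, with 95% intervals for counting error. Right-pointing triangles give the ratio with 3 UMIs put in place of 0 where early cells had none. The 15 upper genes keep ratios of at least 2 among Malat1-low cells (right panel). Snhg11 moves from 0.024 and 0.030 to 0.76 and 0.31, where it had only 7 and 5 UMIs in late and 4 and 8 UMIs in early cells.

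Amino acid and peptide carriers split in both directions. Of 20 listed, 16 were tested, and 4 were higher and 7 lower in late cells, against 4.34% and 8.71% of all genes. The median log2 ratios were −0.66 and −0.49 against 0.12 and 0.078 over all genes. The higher ones were Slc7a12, Slc6a18, a neutral amino acid carrier (301 and 312 CPM against 34.5 and 38.7 CPM), Slc6a13, a taurine and GABA carrier (2.50 and 3.43 times), and Slc15a2, the high-affinity peptide carrier PEPT2 (2.38 and 2.56 times). The lower ones included Slc6a19, the main neutral amino acid carrier of the early tubule, at 114 and 133 CPM against 662 and 668 CPM (ratios 0.173 and 0.199). The basolateral carriers Slc7a7 (0.277 and 0.254), Slc7a8 (0.257 and 0.232) and Slc3a2 (0.344 and 0.421), the last a heavy chain that pairs with both, were lower as well. The other lower carriers were Slc43a2, Slc16a10 and Slc36a1. All 4 higher and 6 of the 7 lower carriers kept a 2-fold difference among Malat1-low cells.

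A list of 10 carriers, named here for sugars, also held the monocarboxylate carrier Slc5a8, and 6 of the 10 were tested. The 3 sodium-coupled ones above were higher in late cells, against 4.34% of all genes. Slc2a2 (GLUT2), the basolateral glucose exit, was lower, at 183 and 184 CPM against 418 and 428 CPM, where 8.71% of all genes were lower. All 4 differences held among Malat1-low cells. Of 26 organic ion carriers, 14 were tested and 4 were higher: Slc22a6, Slc22a2, a cation carrier (275 and 283 CPM against 84.7 and 82.0 CPM), Slc22a12, the urate carrier URAT1 (421 and 477 CPM against 163 and 166 CPM), and Slco1a6. The only lower one was Slc22a23. Over all genes 4.34% were higher and 8.71% lower. Among Malat1-low cells all 4 higher genes kept a 2-fold difference and Slc22a23 did not. Carriers for drug export lay near 1, with Abcg2 at 0.915 and 0.945 and Abcc2 at 0.715 and 0.766. In bile acid handling, 3 of 5 tested genes were higher: Slc10a2, Slc27a2, which activates fatty and bile acids (2137 and 2097 CPM against 709 and 703 CPM), and Slc51b, a subunit of the basolateral bile acid exit (2.34 and 2.36 times), against 4.34% of all genes. Among Malat1-low cells 2 of the 3 kept a 2-fold difference, and Slc51b had ratios of 2.08 and 1.81. The partner subunit Slc51a had ratios of 1.34 and 1.48.

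Enzymes of peroxisomes and fatty acid oxidation were higher in part. Of 39 genes of this list, 32 were tested and 13 were at least 2 times higher, against 4.34% of all genes. Acsm2, a mitochondrial acyl-CoA synthetase, was the 1 lower gene, where 8.71% of all genes were lower. The median log2 ratios of the list were 0.86 and 0.78, and 9 of the 13 higher genes kept a 2-fold difference among Malat1-low cells. Hao2, a peroxisomal hydroxy acid oxidase, stood at 1711 and 1241 CPM against 286 and 235 CPM. Acaa1b, a peroxisomal thiolase, had ratios of 5.75 and 5.28, and Ehhadh, the bifunctional enzyme, of 3.98 and 3.28. Ppara, the receptor that drives many of these genes, did not differ by 2 times, at 75.1 and 72.1 CPM in late and 68.0 and 73.6 CPM in early cells.

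All 6 cytochrome P450 genes that were called among 9 tested were higher in late cells, against 4.34% of all genes. All 6 kept this among Malat1-low cells. Beside Cyp4a14 these were Cyp4a10 (583 and 625 CPM against 69.1 and 89.6 CPM), Cyp4a31, Cyp2j11 (333 and 312 CPM against 47.2 and 42.9 CPM), Cyp2e1 and Cyp51, an enzyme of cholesterol synthesis. The male-type genes Cyp4a12a and Cyp2j13 had 2 or fewer UMIs in late cells of either library. In a list of 17 sex-dependent kidney genes, 8 were tested and 6 were higher, against 4.34% of all genes. Among the 6 were Prlr, the prolactin receptor (545 and 394 CPM against 142 and 118 CPM), and Akr1c21, a steroid dehydrogenase. Of these 6, 5 kept a 2-fold difference among Malat1-low cells, where Akr1c21 had ratios of 1.52 and 1.58.

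Glutathione genes were higher in 7 of 22 tested cases and lower in 2, against 4.34% and 8.71% of all genes. The lower count was thus near the share over all genes. Ggt1, the brush border enzyme that starts glutathione breakdown (737 and 822 CPM against 263 and 269 CPM), and Ggct, the next step (6.46 and 4.70 times), were higher. Dpep1, a dipeptidase, was lower (0.190 and 0.150), and so was Gpx3, the secreted glutathione peroxidase, at 5500 and 6956 CPM against 18415 and 20133 CPM. Of the 7 higher genes, 3 kept a 2-fold difference among Malat1-low cells, and both lower genes did. Of 10 tested gluconeogenesis genes, none was higher and 1, the lactate carrier Slc16a1, was lower, also among Malat1-low cells, a share near the 13.1% called over all genes, with Pck1 at 1.21 and 1.05 and G6pc at 0.550 and 0.576. Of 22 tested genes of endocytosis and the brush border, 4 were higher (Mme, Tmigd1, Mep1a and Aqp1) and Slc9a3, the sodium-proton exchanger, was lower, against 4.34% and 8.71% of all genes. Among Malat1-low cells 3 of the 4 kept a 2-fold difference, Aqp1 had ratios of 1.87 and 2.11, and Slc9a3 did not keep it. The endocytic receptor gene Cubn, not used by the gate, had ratios of 0.930 and 0.960.

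Of 10 tested transcription factors and other regulators of the segments, 1 was called, a share near the 13.1% over all genes. This was Maf, lower at 718 and 619 CPM against 1633 and 1516 CPM (ratios 0.440 and 0.408), and among Malat1-low cells at 0.548 and 0.503. Hnf4a, a main regulator of proximal tubule identity, had ratios of 0.993 and 0.976.

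Among the genes lowest in late relative to early cells, some kept low ratios among Malat1-low cells and others had few UMIs there. Slc34a3, the sodium-phosphate carrier NaPi-IIc, stood at 8.22 and 5.19 CPM in late cells against 154 and 131 CPM in early cells. Its ratios were 0.053 (0.033 to 0.082) and 0.040 (0.019 to 0.074), and 0.059 and 0.047 among Malat1-low cells. Ugt2b38, a glucuronosyltransferase, had ratios of 0.108 and 0.183, and of 0.095 and 0.142 among Malat1-low cells. Fabp3, a fatty acid-binding protein (0.120 and 0.158, and 0.091 and 0.086 among Malat1-low cells), Tbx2, a T-box transcription factor (0.035 and 0.063, and 0.087 and 0.095), and Epb41l3, a membrane skeleton protein (0.095 and 0.128, and 0.086 and 0.146), were alike in this. These 5 genes were low in late cells with and without Malat1-high cells.

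Snhg11, a host gene of small nucleolar RNA, stood at 15.3 and 21.8 CPM against 650 and 717 CPM, ratios of 0.024 and 0.030. Among Malat1-low cells its ratios were 0.76 (0.19 to 3.56) and 0.31 (0.079 to 1.07). Srcin1 moved from 0.107 and 0.090 to 0.437 and 0.422, and Cpeb3, an RNA-binding regulator of translation, from 0.113 and 0.149 to 0.403 and 0.800. Adra1a, an adrenergic receptor (0.109 and 0.117), and Unc5c, a netrin receptor (0.033 and 0.083), moved to 0.283 and 0.403 and to 0.117 and 0.246. These 5 genes had under 30 UMIs among Malat1-low cells of at least 1 library. Chrna4, Gpat3, Hsd3b2, Atxn1 and Slc6a19 completed the 15, with ratios between 0.037 and 0.199. The transcript ends of Hsd3b2 shared 43.0% of their sequence words with other genes, so its count is uncertain. Of the 15, 10 had enough UMIs among Malat1-low cells and all 10 were still at least 2 times lower there; among Malat1-high cells all 15 were.

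Late cells were not alike among themselves, and Slc7a12 sat in a few of them. At 5 or more UMIs of Slc7a12 per 10000 there were 17 vehicle cells (3.88%, 2.28 to 6.14%) and 5 CA3 cells (1.59%, 0.519 to 3.68%). They held 97.0% and 98.9% of the Slc7a12 UMIs of late cells, with 4.07% and 2.36% of all UMIs of late cells. They also held 84.0% and 62.1% of the UMIs of Kap, 55.7% and 65.5% of Aadat and 40.6% and 30.95% of Slc22a13, but 1.20% and 0% of Cyp4a14. Because these cells were picked by a measured gene, the values that follow are descriptions.

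Kap stood at 77582 and 62371 CPM in the Slc7a12 cells and at 630 and 921 CPM in the other late cells. A Kap UMI was found in all 17 vehicle cells, but in 3 of the 5 CA3 cells. In the plot of Slc7a12 and Kap by cell, other late cells with Kap are also seen: 18 of 421 and 13 of 309 had 5 or more Kap UMIs per 10000. Mep1b, the beta subunit of the brush border protease meprin, stood at 807 and 945 CPM in Slc7a12 cells against 6.53 and 2.66 CPM. The serpin gene Serpina1f (1124 and 1164 CPM against 13.1 and 3.72 CPM) was high in them as well, and so were Slc22a19, an organic anion carrier (951 and 857 CPM against 12.6 and 10.1 CPM), and Napsa (22124 and 22431 CPM against 1290 and 1237 CPM). Slc22a13 was found in 15 of 17 and 4 of 5 of them, against 9.50% and 9.71% of other late cells.

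The same cells lacked much of what marks S2. Slc22a8, the organic anion carrier OAT3, stood at 115 and 43.9 CPM in Slc7a12 cells against 893 and 1059 CPM in other late cells. Cyp2e1 had 0 UMIs in them, against 129 and 232 CPM. Slc22a6 was found in 8 of 17 and 1 of 5 of them, against 83.6% and 87.1% of other late cells. Gatm, which makes the creatine precursor (192 and 43.9 CPM against 1655 and 1564 CPM), was lower too. All 17 and 5 Slc7a12 cells were Malat1-low, and none had an Xist UMI, against 701 and 967 CPM in other late cells. Slc10a2 was found in 13 of 17 and 5 of 5 of them.

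**Figure D4:**
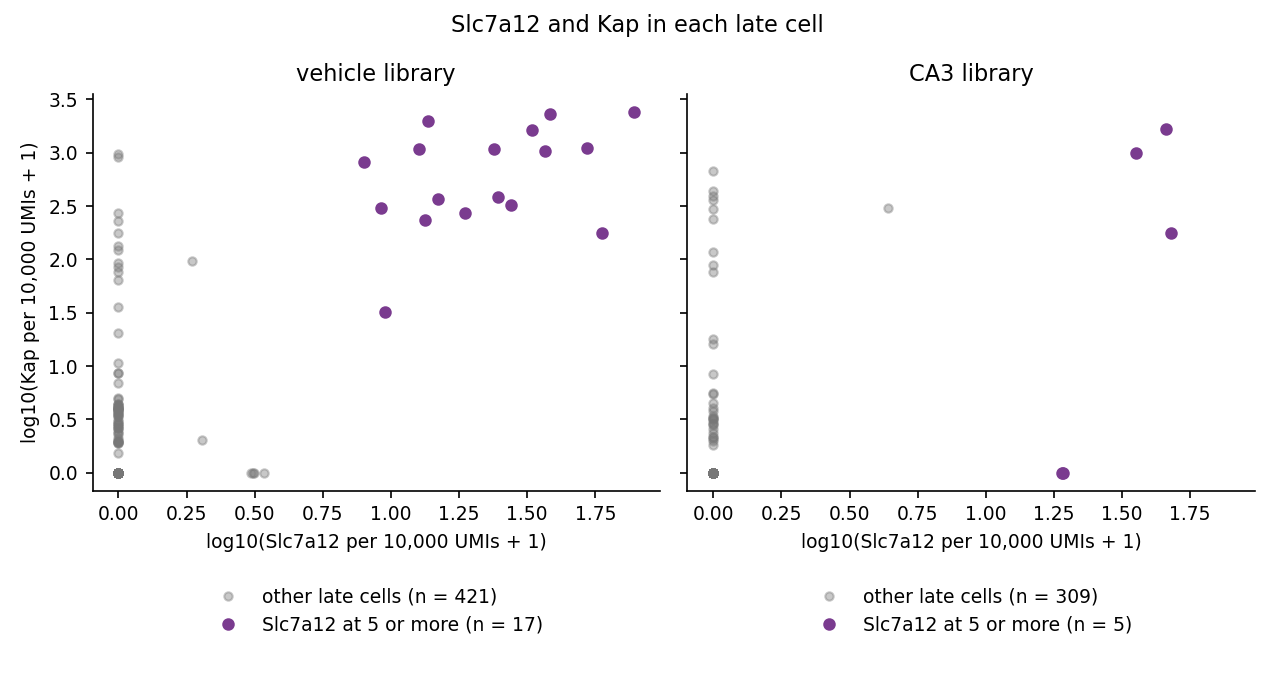
Kap against Slc7a12 in each late cell (log10 of UMIs per 10000 plus 1) of the vehicle and CA3 libraries, with the cells at 5 or more Slc7a12 UMIs per 10000 in purple. All 17 purple vehicle cells carry Kap, and 3 of the 5 purple CA3 cells do; the 2 without Kap overlap.

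Between the CA3 and the vehicle library, late cells were close to each other. Of 3187 genes with enough UMIs, 35 (1.1%) were at least 1.5 times higher and 32 (1%) at least 1.5 times lower in the CA3 library, 2.1% in all, with a median log2 ratio of −0.039. In early cells 21 of 3473 genes were higher (0.605%) and 22 lower (0.633%). With 1 library per group these are differences between 2 libraries, and what treatment, mice or handling contributed cannot be told apart. Among the lists, no gene of the peroxisome list (32 tested), of gluconeogenesis (9), of the sugar carrier list (6) or of the amino acid carriers (14) differed by 1.5 times. In gluconeogenesis Pck1 stood at 1665 and 2235 CPM, a ratio of 1.34 (1.29 to 1.40), and the glucose-releasing enzyme gene G6pc had a ratio of 1.34 (1.24 to 1.46).

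RNA of other cell types differed between the late cells of the libraries. Over 52 markers of 13 other cell types the sum was 974 CPM in vehicle and 321 CPM in CA3 late cells. Of the late cells, 58 of 438 in vehicle and 47 of 314 in CA3 had 5 or more such UMIs per 10000. Markers of the thick ascending limb stood at 418 and 113 CPM, with 737 of 1067 vehicle UMIs in 3 cells. Red cell markers stood at 370 and 28.5 CPM, with 877 of 946 vehicle UMIs in 3 cells. The other 11 lists summed to 106 CPM or less in each library, the highest being the distal convoluted tubule at 106 and 63.8 CPM. Among defining markers, Cd3g, Cd3d, Col1a1, Pdgfrb, Ms4a1 and Slc14a2 were at 0 in vehicle late cells, and Cldn16, Slc4a1, Nphs1, Flt1, Col1a1, Cd3e and Slc14a2 in CA3 late cells.

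Some genes known from the distal nephron and blood differed in both directions, and a few cells held much of their RNA. Klk1, the tissue kallikrein, stood at 177 CPM in vehicle and 671 CPM in CA3 late cells (3.78, 3.40 to 4.22), but the 3 CA3 cells with most UMIs held 1047 of 1293, and the ratio was 1.15 once the 3 highest cells per library were left out. Calb1 and S100g, calcium-binding proteins, had ratios of 3.51 and 2.76, and of 1.65 and 1.38 without those cells. Defb1, a defensin, moved from 2.68 to 1.22, Clu, a secreted chaperone raised in tubule injury, from 3.78 to 1.96, and Wnk1, a kinase of salt handling, from 1.78 to 1.03. On the lower side, Umod, made by the thick ascending limb, stood at 282 and 82.5 CPM (0.292 and 0.791 without the cells), Egf at 91.6 and 31.7 CPM (0.346 and 0.802), and the globin gene Hbb-bs at 213 and 18.2 CPM (0.085 and 0.841). The transcript ends of Klk1 and Hbb-bs shared 43.6% and 57.9% of their sequence words, short runs of bases, with other genes, so these counts are uncertain. Of the 35 higher and 32 lower genes, 19 and 19 kept a 1.5-fold difference without the 3 cells. Without all cells at 5 or more UMIs per 10000 of the other cell types' markers, 30 and 19 did, and Umod and Egf turned to 1.37 and 1.51. Without the limit on Cyr61 plus Fosb, 16 and 17 did.

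Gstp1, a glutathione S-transferase, stood at 46.2 CPM in vehicle and 152 CPM in CA3 late cells (3.29, 2.65 to 4.11). It was found in 21.0% and 51.6% of late cells, and the ratio was 3.71 in middle and 3.33 in early cells and 3.37 without the 3 highest cells. After thinning, the shares with a UMI were 9.82% and 24.9% in late, 3.23% and 12.2% in early cells and 2.33% and 15.8% in lymphocytes, so the share was higher in the CA3 library in each of these classes. Its transcript ends shared 47.8% of their sequence words with other genes, so its count is uncertain. Of 23 tested glutathione genes no other differed by 1.5 times, where 2.1% of all genes did. Among 9 tested cytochrome P450 genes, 2 were higher in the CA3 library, against 1.1% of all genes. Cyp4b1 stood at 106 and 207 CPM (1.96, 1.67 to 2.30), with 1.83 in middle and 1.51 in early cells. Cyp2e1, which oxidises ethanol and other small molecules, stood at 124 and 226 CPM (1.83, 1.58 to 2.12) and was found in 35.2% and 50.3% of late cells. Its ratio was 2.56 in middle cells and 0.708 in early cells.

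Immediate early genes were higher in CA3 late cells: 4 of 14 listed were tested and all 4 were higher, against 1.1% of all genes. Jun stood at 230 and 415 CPM (1.80, 1.62 to 2.01), Egr1 at 20.4 and 54.5 CPM (2.68, 1.90 to 3.81), Jund at 220 and 330 CPM (1.503) and Klf6 at 38.0 and 71.1 CPM (1.87). The gate itself limits the related genes Cyr61 and Fosb. Without that limit Egr1 turned to 0.796 and Jun stood at 1.13, so the direction for Egr1 rests on the gate. In early cells the ratios were 1.13 for Jun, 1.91 for Egr1 and 0.768 for Klf6. Of 8 tested heat shock genes none differed by 1.5 times, where 2.1% of all genes did.

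**Figure D5:**
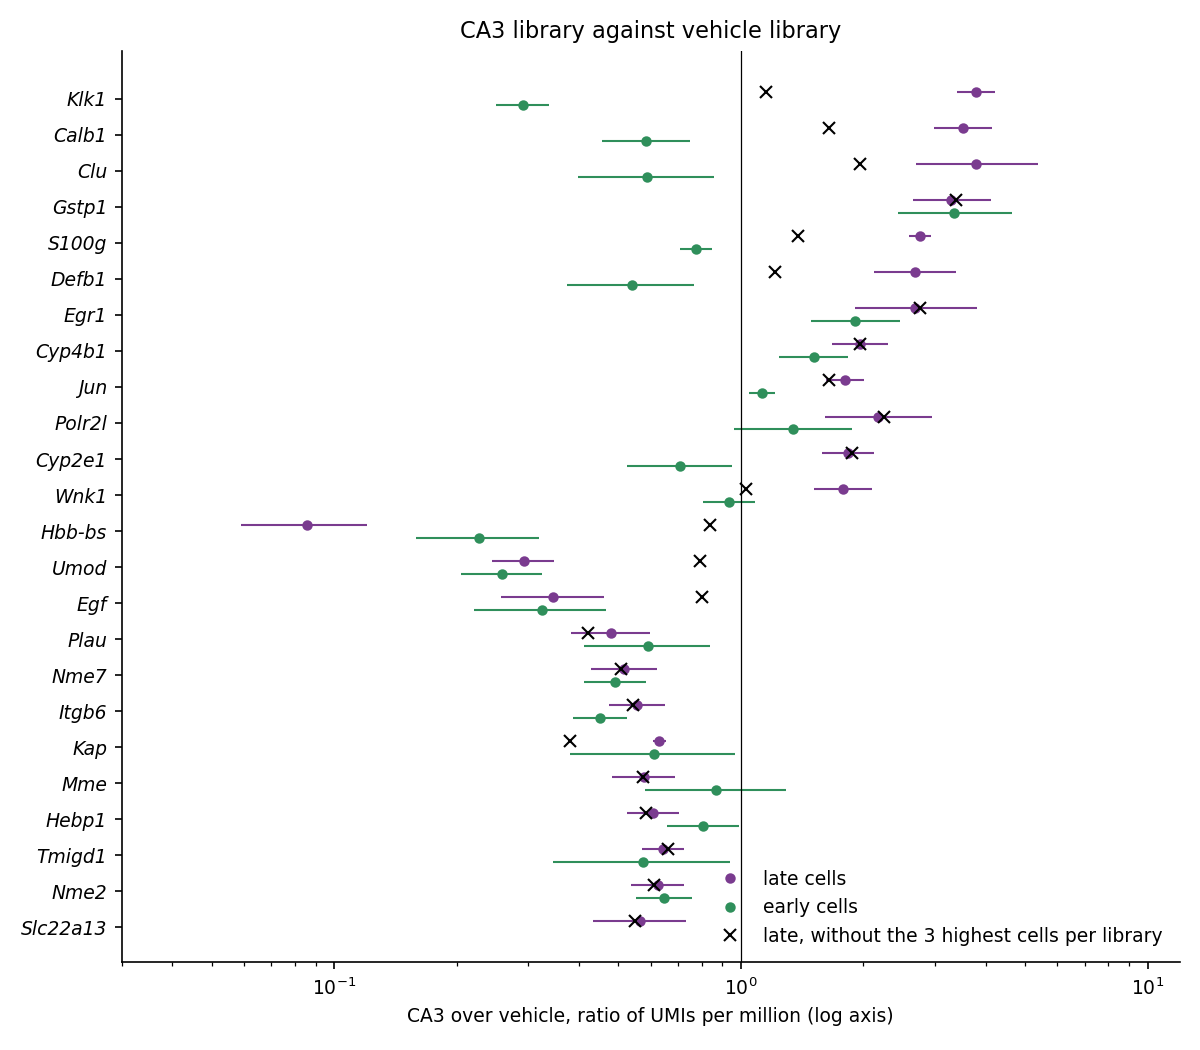
Ratio of the CA3 to the vehicle library (log axis) for the 24 named genes in late (purple) and early (green) cells with 95% intervals for counting error; crosses give late cells after leaving out, per library, the 3 cells highest for that gene. Gstp1 lies near 3.3 in both classes, whereas the crosses of Klk1 (1.15), Wnk1 (1.03) and Hbb-bs (0.841) lie near 1. No early point is drawn for Slc22a13, which had 0 UMIs in early CA3 cells.

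Of the 32 genes lower in the CA3 library, Tmigd1 stood at 343 and 221 CPM (0.644, 0.572 to 0.724) and Mme, the neutral endopeptidase neprilysin, at 159 and 91.9 CPM (0.577, 0.481 to 0.690). These were 2 of 22 tested genes of endocytosis and the brush border, and none of that list was higher. Over all genes 1% were lower and 1.1% higher. Of 4 tested S3 markers none differed by 1.5 times, where 2.1% of all genes did. Of 16 tested organic ion carriers 2 were lower and 1 higher. Slc22a13 stood at 77.1 and 43.6 CPM (0.565, 0.433 to 0.734), and Slc22a19 at 50.9 and 30.1 CPM (0.592, 0.426 to 0.812), while the export carrier Abcc4 stood at 40.3 and 60.7 CPM (1.51, 1.15 to 1.98). The other 3 markers lay within 1.5 times, at 1.17 for Cyp4a14, 0.796 for Slc10a2 and 0.871 for Slc7a12. The Slc7a12 ratio rests on few cells. Its 3 highest cells per library held 111 of 268 vehicle UMIs and 157 of 176 CA3 UMIs, and without them the ratio was 0.162. The vehicle library held more Slc7a12 cells. Without them the ratio of Slc22a13 was 0.646, that of Mme 0.686 and that of Slc22a19 0.798, and that of Kap turned from 0.630 (3765 and 2372 CPM) to 1.46. Tmigd1 stayed at 0.654 without these cells.

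Plau, the urokinase plasminogen activator, stood at 119 and 57.1 CPM (0.480, 0.382 to 0.599) and was found in 35.4% and 21.3% of late cells, with ratios of 0.508 in middle and 0.590 in early cells. It was itself higher in late than in early cells, by 3.56 and 2.89 times. Itgb6, an integrin that activates latent TGF-beta, stood at 210 and 117 CPM (0.556, 0.473 to 0.650), with 0.643 in middle and 0.451 in early cells. Of 26 injury and repair genes 5 were tested: these 2 were lower, Clu was higher, and Spp1 (osteopontin) at 1.37 and Krt8 at 0.817 were not called. Among all genes 1% were lower and 1.1% higher. Havcr1 (KIM-1) had 6 and 5 UMIs, Lcn2 0 and 2, and Vcam1 98 and 60 in all late cells, too few or too low to be tested. Hebp1, a haem-binding protein, stood at 227 and 138 CPM (0.608, 0.524 to 0.704) and Slc11a2, the iron carrier DMT1, at 55.2 and 36.3 CPM (0.658, 0.487 to 0.883). These were 2 of 9 tested genes of haem and iron, against 1% of all genes. Nme7 and Nme2, nucleoside diphosphate kinases, stood at 0.517 and 0.625, but 98.7% of the sequence words at the ends of Nme2 are shared with other genes.

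Because CA3 is described as acting on YAP1, known YAP and TAZ target genes were read in late cells. Of 23 listed, 4 had enough UMIs and none differed by 1.5 times, where 2.1% of all genes did. With 4 genes, a count of 0 cannot be told apart from that share. Crim1 stood at 53.6 and 38.9 CPM (0.726, 0.540 to 0.969), Nuak2 at 73.6 and 55.0 CPM (0.748, 0.584 to 0.954), Wwc1 at 132 and 128 CPM (0.975, 0.824 to 1.15) and Myof at 45.4 and 56.6 CPM (1.25, 0.9504 to 1.63). The median log2 ratio of the 4 was −0.23, against −0.039 over all genes. Ctgf had 4 and 2 UMIs and Ankrd1 had 0 in late cells of both libraries, and Cyr61, a further target, was part of the gate. A change of Ctgf or Ankrd1 was not detectable at this depth. The proliferation genes Mki67 and Top2a had 0 UMIs over all late cells of both libraries, and of the cell cycle genes only Ccnd1 (59.9 and 50.9 CPM in late cells) had enough UMIs to compare.

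On mm10, with GENCODE vM21 gene models, Cyp4a14 lies on chromosome 4 from 115486200 to 115496142, Slc10a2 on chromosome 8 from 5083219 to 5105351, Slc22a13 on chromosome 9 from 119192974 to 119209098 and Slc7a12 on chromosome 3 from 14480697 to 14505830. Kap lies on chromosome 6 from 133849851 to 133853762, Slc34a3 on chromosome 2 from 25228898 to 25234364, Malat1 on chromosome 19 from 5795690 to 5802672, Cyp2e1 on chromosome 7 from 140763739 to 140774987 and Plau on chromosome 14 from 20836660 to 20843385.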

How the data were processed

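Single-cell RNA was measured in 2 libraries, 1 per group. Raw UMI counts per gene and barcode were deposited by the authors as filtered matrices of 31058 features; the submitters' processing notes name Cell Ranger 3.0.1 and mm10, and the sources used here give no other step. Per the labels, libraries were 3' libraries of 10x Genomics.

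UMIs were summed per class and library with Python 3.11.15, numpy 2.4.6, scipy 1.17.1 and pandas 2.3.3, drawn with matplotlib 3.10.9, and divided by the sum of non-mitochondrial UMIs (CPM). Ratios carry exact conditional binomial intervals and shares exact Clopper-Pearson intervals, at 95%. Tested means at least 30 UMIs over both sides and at least 50 CPM in the higher one; called means at least 2 times in both libraries (late against early) or at least 1.5 times (CA3 against vehicle). Gate genes were not tested. Where early cells had 0 UMIs, a ratio with 3 UMIs in place of 0 is given, which is not an interval bound. No p-value was computed, as cells are not replicates. The scripts were tested on simulated data.

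The members, the 23 gene lists and the markers were chosen with earlier results of these data known. Named genes were up to 15 called genes in each direction (late against early) and up to 12 found in at least 10% of late cells of the higher library (CA3 against vehicle), ranked by the interval bound nearest 1, leaving out gate, mitochondrial and ribosomal protein genes and predicted models; up to 8 members of each list could be named too. The Malat1 split and the genes set out in the Slc7a12 cells were chosen after the data were seen. Alternatives covered cell filters, gate limits, thinning, scaling, cell weights and leaving out cells. Some genes are not reported here.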

Additional observations from a re-analysis of the deposited data

Results flagged for a closer look

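For 7 of the genes called between the libraries and described here, the interval of the CA3 to vehicle ratio lay above 1 in late cells and below 1 in early cells. The difference between the classes was not tested. Klk1 had a ratio of 3.78 in late and 0.291 in early cells, Calb1 3.51 and 0.585, Clu 3.78 and 0.587, S100g 2.76 and 0.776, and Defb1 2.68 and 0.539. In these 5 genes a few cells hold much of the RNA, and without the 3 highest cells per library the late ratios were 1.15, 1.65, 1.96, 1.38 and 1.22.

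Cyp2e1 had a ratio of 1.83 in late and 0.708 in early cells, and the late ratio was 1.88 without the 3 highest cells. Klf6 had a ratio of 1.87 in late and 0.768 in early cells, and 1.51 in late cells without the 3 highest cells.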

How the results depend on the processing

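No paired analysis was possible because each group holds 1 library. Of 68 alternative values for the shares and counts, 33 stayed within the spread allowed, and 35 moved. The late share (24.8% vehicle, 21.0% CA3) was 22.2% and 17.0% with a minimum of 1000 genes and a maximum of 25% mitochondrial UMIs, 18.1% and 15.1% with Slc34a1 plus Lrp2 at 50, 22.2% and 18.7% with no Slc5a2 or Slc5a12 UMI, 31.01% and 28.2% with no limit on Cyr61 plus Fosb, 21.5% and 17.9% without cells with RNA of other types, 40.1% and 35.0% among Malat1-low and 7.38% and 5.50% among Malat1-high cells, and it was lower in the CA3 library in each of these. Genes higher in late cells (151) were 384 with no SGLT2 UMI and early cells at 20 or more, 232 with no minimum CPM, 95 among Malat1-low and 99 among Malat1-high cells. Genes lower (303) were 538, 809, 64 and 68 in the same settings, 117 with no stress limit and 536 with the 50 highest genes left out. Genes higher in CA3 (35) were 69 with stricter cell filters, 111 with cells thinned to 2000 UMIs, 62 with the 50 highest genes left out, 21 without the 3 highest cells, 433 with no minimum CPM and 288 among Malat1-high cells, where 61 and 39 cells remain. Genes lower in CA3 (32) were 54 with stricter cell filters, 49 with Slc34a1 plus Lrp2 at 50, 120 thinned, 419 with no minimum CPM and 368 among Malat1-high cells. Thinning lowers the counts behind each gene, and dropping the minimum CPM lets in genes under 50 CPM. The cause of the moves was not tested in any setting.

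For single genes, 765 of 1017 alternative values stayed, 238 moved in size and 14 turned direction. With Slc34a1 plus Lrp2 at 50, the CA3 ratio of Klk1 was 0.942, of Hbb-bs 1.16, of Umod 1.00013 and of Egf 1.03. With no SGLT2 UMI, Umod was 1.14 and Egf 1.27; without cells with RNA of other types they were 1.37 and 1.51, and among Malat1-high cells 1.09 and 1.03. Egr1 was 0.796 without the stress limit, Kap 1.46 without Slc7a12 cells and Klk1 0.854 among Malat1-low cells. The late to early ratio of Kap was 0.513 among Malat1-high CA3 cells. The Malat1 settings were chosen after seeing the data. Depth limits genes under 50 CPM and all calls among Malat1-high late cells.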

Other observations

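Some genes of antigen presentation were among those higher in CA3 late cells, and were named after their values were seen. H2-Ab1, a chain of MHC class II, stood at 65.8 CPM in vehicle and 105 CPM in CA3 late cells (1.59, 1.29 to 1.97), and Cd74, its invariant chain, at 63.4 and 96.5 CPM (1.52, 1.23 to 1.89). Without the 3 highest cells per library the ratios were 1.55 and 1.67. In late cells the markers of phagocytes summed to 29.7 and 29.6 CPM, with 48 of 76 and 11 of 57 UMIs in 3 cells, those of B cells to 0.391 and 2.59 CPM and those of T or NK cells to 3.91 and 9.86 CPM, and the part of RNA from immune cells in these ratios was not tested.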
